A study of Mus musculus with 12 samples.

Results

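The Ms4a genes described here are Ms4a4b, Ms4a4c, Ms4a4d, Ms4a6b, Ms4a6c and Ms4a6d, 6 neighboring genes of a larger family of membrane proteins. They are 6 of 15964 genes with a symbol of their own on the arrays and were covered by 9 of the 36701 probe sets, all those that the array annotation assigns to 1 of these symbols. The 6 genes had been chosen from their measured values in this same comparison of 2 groups, so their differences between the groups are a description, also where it is said which of them passed the test that was run over all probe sets. Total RNA of adult thymocytes had been hybridized to 3 types of Affymetrix array, U74Av2, U74Bv2 and U74Cv2, in 12 samples, and the comparison asks which genes are more highly expressed in thymocytes that are being positively selected. One group was AND-TCR–transgenic mice, which carry a rearranged T cell receptor (TCR) restricted by MHC class II and are positive selectors of CD4 lineage cells because of their H-2b background. The other group was C57BL/6 mice, the wild type. All thymocytes were used in both groups, with no sorting of subsets. No source used here gives the promoter of the transgene or the sex of the mice, or their age beyond adult. Each group had 2 hybridizations per array type, named the first and the second. The sources speak of 2 hybridizations or independent experiments and do not say whether they came from separate mice, so the spread between them, and any p-value from it, may be technical.

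Ms4a proteins cross the membrane several times and sit at the cell surface or in inner membranes, where several of them associate with signaling receptors. The best-known members are CD20 (Ms4a1) of B cells and the beta chain of the high-affinity IgE receptor (Ms4a2) of mast cells. Ms4a4b is known as a membrane protein of T cells that associates with the costimulatory receptor GITR and dampens proliferation, while Ms4a6d and its relatives are also known from macrophages. In the thymus, cells that pass positive selection leave the CD4/CD8 double-positive (DP) stage and become mature single-positive (SP) cells.

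The 6 genes lie side by side on mouse chromosome 19, from 11404717 to 11604804 of the GRCm38.p6 assembly in the RefSeq annotation. In this stretch of 200 kb they follow each other in the order Ms4a4c (11404717 to 11427246), Ms4a4b (11443558 to 11463549), Ms4a6c (11469353 to 11487182), Ms4a6b (11518559 to 11530403), Ms4a4d (11536794 to 11558466) and Ms4a6d (11586606 to 11604804). The strand could be read for 5 of them and was the plus strand in each. Between them the annotation places 3 other genes, the protein-coding Gm8369 and the pseudogenes Gm5511 and Gm10212. The lncRNA BE692007 lies within the bounds of Ms4a6c, and the pseudogene Gm5692 overlaps the first bases of Ms4a4c. The whole Ms4a cluster has 21 genes over 679 kb, and 14 of these had a probe set on the arrays.

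**Figure D1:**
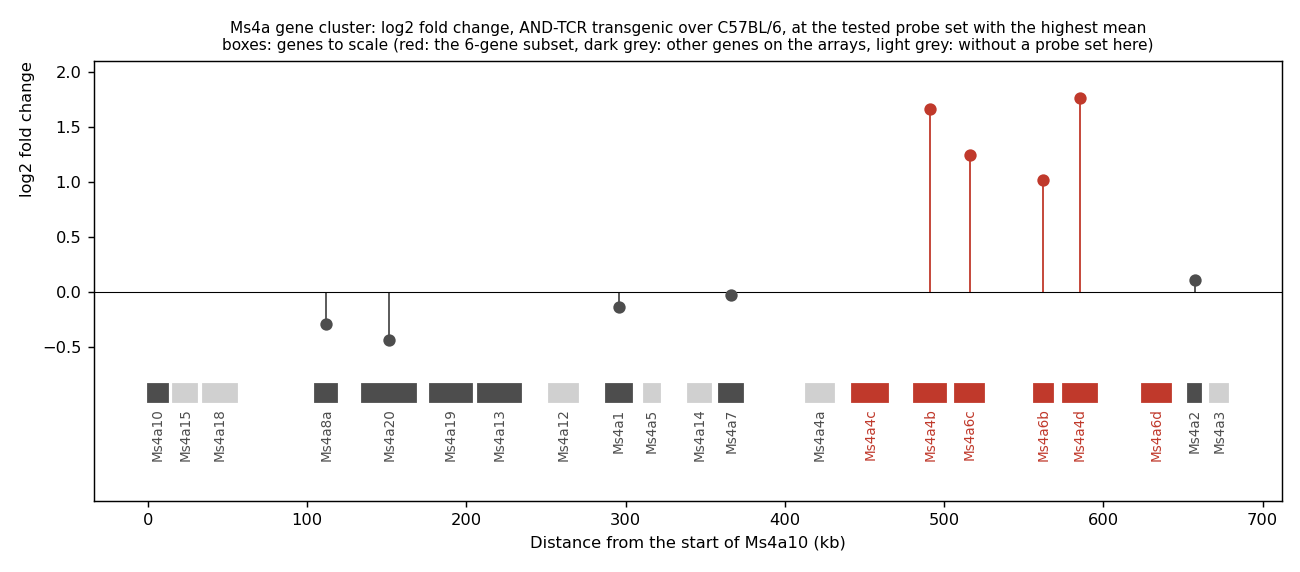
Ms4a gene cluster drawn to scale, with the distance from the start of Ms4a10 in kb on the x axis and, on the y axis, the log2 fold change between the groups (above 0: higher in AND-TCR–transgenic thymocytes) at the brightest tested probe set of a gene. The 4 tested genes of the subset (red) lie side by side among the Ms4a genes with log2 fold changes between 1.02 and 1.76, while the tested genes outside it (dark grey) lie between -0.44 and 0.11 here. Genes with a box and no point had no tested probe set.

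The DNA before the starts of these genes is shown because the genes arose by duplication. RefSeq gave an upstream sequence for 5 of the 6 genes, and the 250 bases before each start were aligned in all 10 pairs. Ms4a4b and Ms4a4c were identical in 117 of 133 aligned columns (88.0%). Ms4a6b and Ms4a6c were identical in 148 of 180 columns (82.2%), with an exact run of 48 bases. The other pairs aligned over 9 to 26 columns. The aligned stretches are given on the plus strand of GRCm38.p6, for Ms4a4b at chr19:11443422-11443553, for Ms4a4c at chr19:11407528-11407660, for Ms4a6b at chr19:11518311-11518488 and for Ms4a6c at chr19:11469193-11469366. For Ms4a4d, which aligned with no other member over a comparable length, chr19:11536553-11536598 is given. The starts are those of the RefSeq upstream entries. For Ms4a4c and Ms4a6c this start lies downstream of the first base of the gene given above, so that the stretch of Ms4a4c lies wholly and that of Ms4a6c partly within the outer bounds of the gene. Capitals mark the letters GGAAGT, a form of the core that ETS transcription factors bind.
Ms4a4b: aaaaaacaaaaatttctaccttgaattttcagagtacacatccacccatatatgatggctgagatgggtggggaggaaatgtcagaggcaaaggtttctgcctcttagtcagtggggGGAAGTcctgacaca
Ms4a4c: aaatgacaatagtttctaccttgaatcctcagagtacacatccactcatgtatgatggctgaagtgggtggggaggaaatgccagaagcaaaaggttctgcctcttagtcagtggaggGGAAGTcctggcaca
Ms4a6b: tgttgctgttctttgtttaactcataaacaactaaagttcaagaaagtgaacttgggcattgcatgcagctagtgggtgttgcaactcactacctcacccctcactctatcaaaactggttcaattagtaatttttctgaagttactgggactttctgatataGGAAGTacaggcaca
Ms4a6c: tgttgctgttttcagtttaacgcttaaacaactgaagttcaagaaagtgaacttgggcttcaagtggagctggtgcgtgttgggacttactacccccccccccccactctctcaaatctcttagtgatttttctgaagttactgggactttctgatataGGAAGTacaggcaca
Ms4a4d: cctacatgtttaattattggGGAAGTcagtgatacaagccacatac

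GGAAGT was searched on both strands of the 250 bases and was found in 5 of 5 members, and in 19.7% of 32851 mouse upstream sequences of the same length. Its first base lay 19 bases before the start of Ms4a4b, 15 before Ms4a4c, 16 before Ms4a6c, 85 before Ms4a6b and 221 before Ms4a4d. Ms4a6b held a second copy on the other strand, 43 bases before the start. In the aligned pairs the copy is part of the shared stretch, so the members are not independent occurrences. The core of the interferon-response element, GAAA repeated after any 2 bases, was in 0 of 5 members and 3.0% of all sequences, and TTCNNNGAA, read by STAT factors, in 0 of 5 and 7.0%. The letters TATAAA were in Ms4a4b and in 12.4% of all, TGTGGT, read by RUNX factors, in Ms4a4c and 14.0%, and CCACCC, read by KLF factors, in Ms4a4b and Ms4a4c and 28.1%. The motifs were picked after the sequences had been read. A match describes letters in this window and not a bound site, and a motif not found says nothing about its factor.

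Expression is given as the scaled intensity, a linear value that falls below 0 on part of each array. The type of value is not stated by the authors. From the negative values a detection limit was set, which was 420.8 on U74Av2, 869.4 on U74Bv2 and 1579 on U74Cv2. Tests were run on probe sets that exceeded it on both arrays of a group. Of the 9 Ms4a probe sets 5 were tested, covering 4 genes, and 4 were under the limit on all 4 arrays. Levels are compared only between groups at the same probe set, since probes of different genes differ in brightness.

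Both probe sets of Ms4a4b were tested, and both read higher in AND-TCR–transgenic thymocytes. Its probe set 114822_f_at on U74Bv2 read 9558 and 8837 on the C57BL/6 arrays and 31523 and 26949 on the AND-TCR–transgenic arrays, in the order of the hybridizations. The means were 9197 ± 509 and 29236 ± 3234 (SD, n = 2 each), a log2 fold change of 1.67 ± 0.11 (SE) or 3.17-fold. The lower AND-TCR–transgenic array was well above the higher C57BL/6 array. The second probe set, 114823_r_at, read 1207 and 1208 in C57BL/6 thymocytes and 3198 and 3079 in AND-TCR–transgenic thymocytes. This was a log2 fold change of 1.38 ± 0.26 (SE) or 2.60-fold, with both groups closer to the limit than at the first probe set. The suffixes f and r denote probe sets whose probes can match several related genes or were designed under relaxed rules. Probe sequences were not used here, and how much paralogous transcripts such as Ms4a4c and Ms4a4d add to these readings was not tested.

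Ms4a4d, a relative of Ms4a4b, had a fold close to that of Ms4a4b, and which of the tested members was highest changed with the normalization. Probe set 103256_at on U74Av2 read 985 and 903 in C57BL/6 thymocytes and 3157 and 3238 in AND-TCR–transgenic thymocytes. Its means were 944 ± 58.2 and 3198 ± 57.4 (SD, n = 2 each), a log2 fold change of 1.76 ± 0.25 (SE) or 3.39-fold. The 2 arrays of a group lay close to each other and the groups did not overlap.

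Ms4a6c, a member of the Ms4a6 branch, was read by 3 probe sets, of which 1 exceeded the limit. Probe set 102104_f_at on U74Av2 read 819 and 923 in C57BL/6 thymocytes and 1953 and 2167 in AND-TCR–transgenic thymocytes, a log2 fold change of 1.24 ± 0.29 (SE) or 2.37-fold. Both arrays of the transgenic group were above both wild-type arrays. This probe set also has the suffix f, and how much paralogous transcripts such as Ms4a6b add to its reading was not tested. On U74Cv2, 130509_at read 327 and 12.6 against 1075 and 1007, apart in the same direction but all under the limit. On U74Bv2, 164260_at read 66.7 and -217 against 194 and -163, so that the groups overlapped and no level was measured.

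Ms4a6b was near the limit. Among the 5 members with an upstream sequence, which leaves out Ms4a6d, it aligned with Ms4a6c over the longest stretch. Probe set 97322_at on U74Av2 read 434 and 207 in C57BL/6 thymocytes and 1230 and 612 in AND-TCR–transgenic thymocytes. The second array of each group was about as far below the first in both groups, and the second C57BL/6 array was under the limit. With that array set to the limit, the log2 fold change was 1.02 ± 0.37 (SE), a bound of at least 2.03-fold. It was 0.52 without the first AND-TCR–transgenic array and 1.53 without the second.

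The remaining 2 genes had no measured level. Ms4a4c (98373_at on U74Av2) read 5.80 and -8.30 in C57BL/6 thymocytes and 371 and 205 in AND-TCR–transgenic thymocytes, and Ms4a6d (114810_at on U74Bv2) read 129 and 164 against 200 and 522. In both, the AND-TCR–transgenic arrays were above the C57BL/6 arrays, but all values were under the limit and no fold is given.

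**Figure D2:**
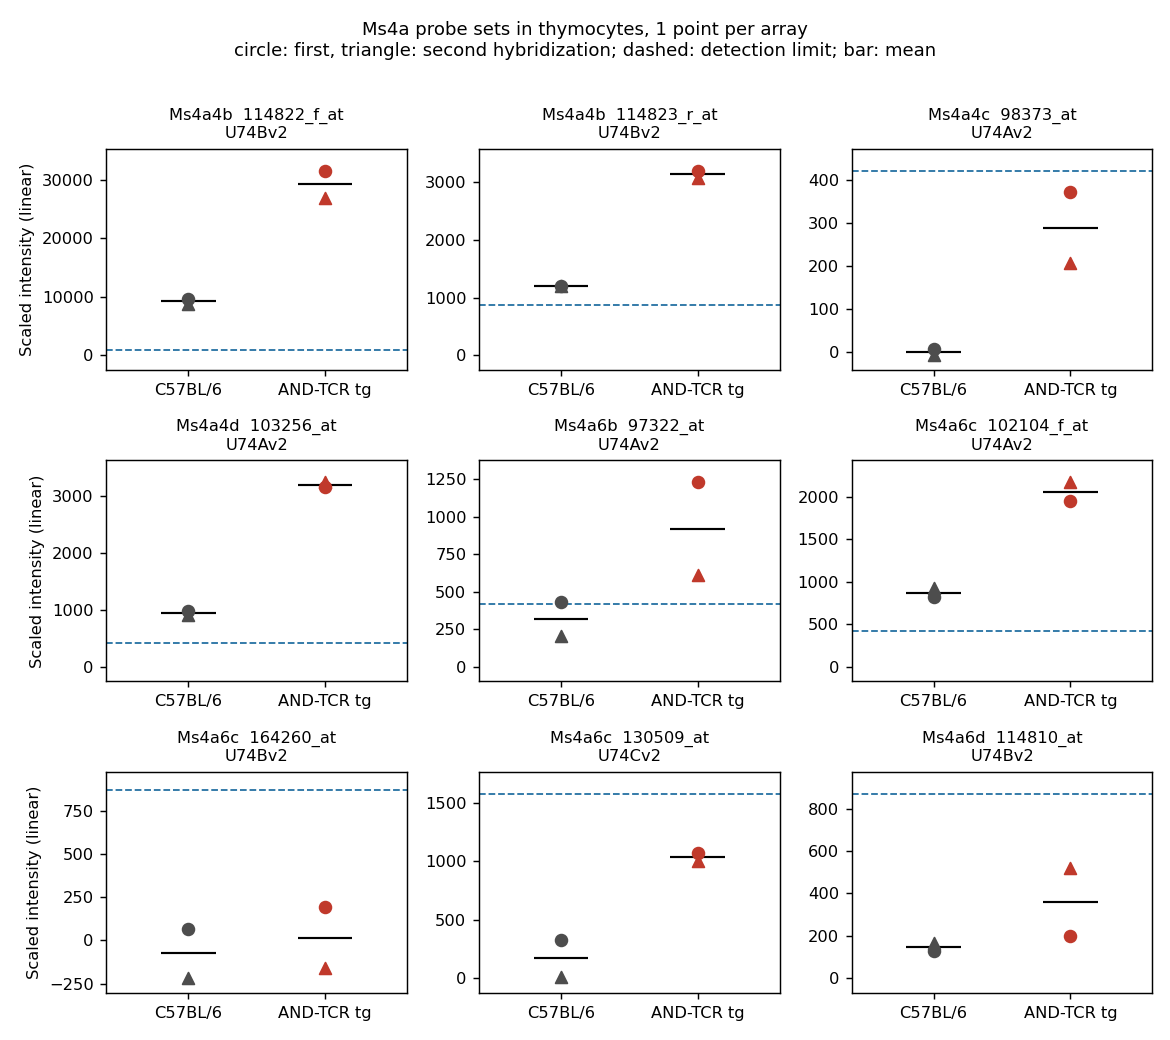
Scaled intensity of the 9 Ms4a probe sets on each of 4 arrays, C57BL/6 in grey and AND-TCR–transgenic in red, with circles for the first and triangles for the second hybridization, bars for the group means and the dashed line for the detection limit. Each panel has its own linear scale. At 8 of 9 probe sets both red points lie above both grey points, beside 17.4% of all probe sets. On all 4 arrays 4 probe sets lie under the dashed line, and 3 of these are among the 8.

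Counted over the 9 probe sets, both AND-TCR–transgenic arrays were above both C57BL/6 arrays at 8, and 17.4% of all 36701 probe sets were apart in this direction. Of these 8, 3 were under the limit on all 4 arrays. In limma, with p-values adjusted over all 12845 tested probe sets, 2 of the 5 tested members passed an adjusted p of 0.05 as higher, 114822_f_at of Ms4a4b and 103256_at of Ms4a4d, and 0 as lower. Of all tested probe sets 0.483% passed as higher and 0.568% as lower. The members were chosen on this contrast, so nothing is read from these counts. Without any 1 of the 4 arrays of each array type, 0 members passed, and then 0 of all probe sets did, with 1290 to 1969 at an unadjusted p under 0.05. The 2 members also passed with the hybridization number as a block. The median log2 fold change of the 5 tested members was 1.38, beside 0.02 over all tested probe sets. Ms4a6b was among these 5 only through the transgenic arrays, since 1 of its 2 C57BL/6 arrays was under the limit. It thus entered through the group where it was higher, and nothing is read from this median. In total thymocytes, more cells of an expressing type and more RNA per cell cannot be told apart.

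The arrays of the same hybridization number were run on the same day in both groups, so a ratio within each number is also a ratio within each day. The folds for Ms4a4b were 3.30 and 3.05 at 114822_f_at and 2.65 and 2.55 at 114823_r_at. Ms4a4d was 3.21-fold and 3.59-fold higher, and Ms4a6c (102104_f_at) was 2.38-fold and 2.35-fold higher. These 4 probe sets were at least 2-fold higher in both hybridizations, as were 1.19% of all tested probe sets, and 0 members were at least 2-fold lower in both, beside 1.19%. Ms4a6b was 2.83-fold higher in the first hybridization and at least 1.45-fold higher in the second. Among tested probe sets ordered by log2 fold change, Ms4a4d ranked 33, Ms4a4b 42 and 102, Ms4a6c 156 and Ms4a6b 285 of 12845.

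**Figure D3:**
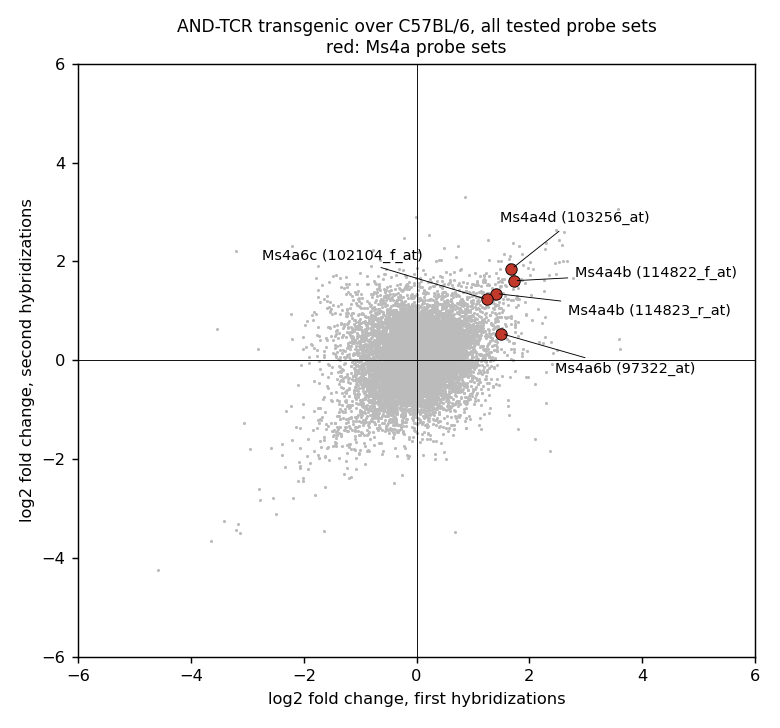
Log2 ratio of the AND-TCR–transgenic to the C57BL/6 array in the first (x axis) and the second hybridization (y axis) for all 12845 tested probe sets (grey) and the 5 tested Ms4a probe sets (red). Both Ms4a4b probe sets, Ms4a4d and Ms4a6c lie near the diagonal at the upper right, and Ms4a6b lies to the right and lower, at 0.54 on the y axis.

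The other genes of the cluster are those left after the members had been chosen on this contrast, so their values too are a description. Other Ms4a genes and the related Tmem176 genes had 19 probe sets for 10 genes, of which 11 were under the limit on all 4 arrays and 6 were tested. Of these 6, 0 passed the test in limma in either direction, 0 had an unadjusted p under 0.05, and the log2 fold changes ran from -0.44 to 0.14. Ms4a1 (CD20) read 656 and 591 in C57BL/6 thymocytes and 601 and 533 in AND-TCR–transgenic thymocytes at 104173_at, a log2 fold change of -0.14 (adjusted p = 0.873 in limma). Ms4a7, a gene of macrophages that lies toward the CD20 side of the members, read 6092 and 7815 against 5929 and 7756, a log2 fold change of -0.03. Ms4a2, on the other side of the members, had a log2 fold change of 0.11 and Tmem176b one of 0.14. Ms4a8a and Ms4a20 had log2 fold changes of -0.29 and -0.44, and in both the sign differed between the hybridizations (-0.97 and 0.39, -1.02 and 0.15). Ms4a10, Ms4a13, Ms4a19 and Tmem176a had no tested probe set. The difference between the members and these genes was not tested, since the members had been chosen for being higher.

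**Figure D4:**
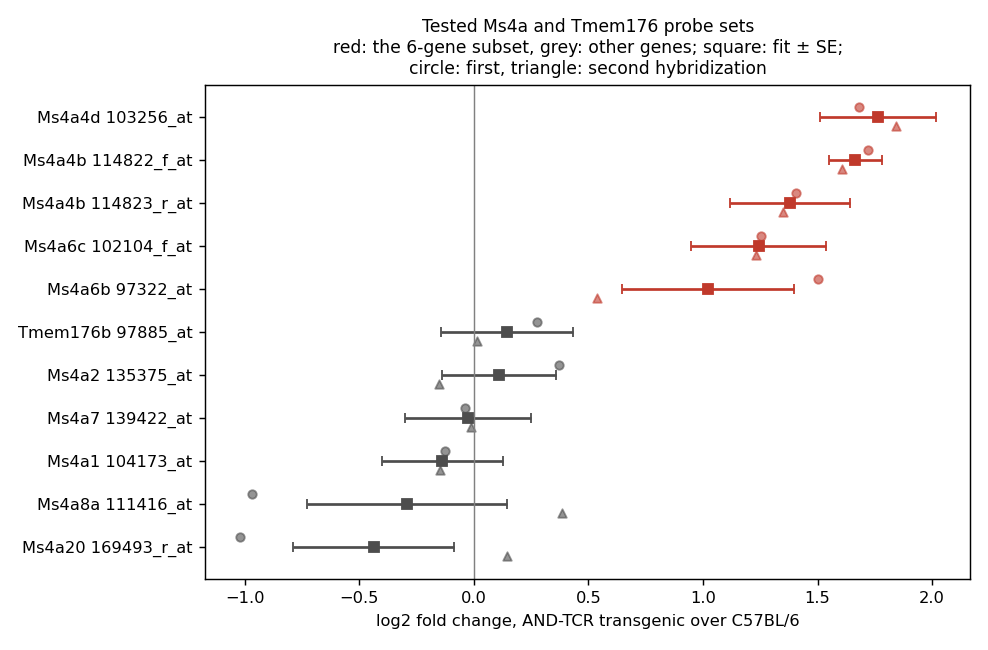
Log2 fold change between the groups (above 0: higher in AND-TCR–transgenic thymocytes) for every tested probe set of the Ms4a and Tmem176 genes, with squares and bars for the fitted value ± SE and circles and triangles for the first and second hybridization. The 5 probe sets of the subset (red) lie between 1.02 and 1.76 and the 6 other probe sets (grey) between -0.44 and 0.14.

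The partners and stage markers of these genes were read on the same arrays. Tnfrsf18, which encodes GITR, the receptor Ms4a4b is known to associate with, read 1270 and 1443 in C57BL/6 thymocytes and 1581 and 1215 in AND-TCR–transgenic thymocytes, a log2 fold change of 0.03 (adjusted p = 0.977 in limma). Among 4 tested genes of GITR and regulatory T cells, 1 rose, Izumo1r, the folate receptor 4 of regulatory T cells, at 4.12-fold (2980 and 4287 against 15261 and 14203). Its probe set also has the suffix f. Nrp1 and Tnfrsf4 had log2 fold changes of -0.58 and -0.21 and did not pass the test in limma. Il2ra, Ctla4 and Ikzf2 were under the limit on all 4 arrays, and the median over the list, on the log2 scale, was -0.09, beside 0.03 over 7844 tested genes.

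Among genes of mature SP thymocytes and naive T cells, 6 of 22 tested genes rose and 0 fell in the same samples, with a median log2 fold change of 0.67. They were Gimap4 (4.80-fold), Slfn1 (3.67-fold), the tetraspanin Cd53 (3.03-fold), Gimap3, the integrin chain Itgb7 and Slfn2. Ccr7 was 4.03-fold higher and did not pass (adjusted p = 0.051 in limma). Of the 22 genes 19 had positive log2 fold changes, while Il7r and Itga4 were at -0.44 and -0.73 and did not pass. Gimap3 and Gimap4 belong to the family the study picked on these arrays. The lists were chosen with earlier results of these data known, so none of their genes is independent evidence. Of all tested probe sets 0.483% passed as higher and 0.568% as lower. Of 14 tested genes of DP thymocytes 7 fell and 1 rose, with a median log2 fold change of -1.08. Rag2 and Rag1, which cut the TCR genes, were at least 9.43-fold and 4.77-fold lower (the second transgenic array was under the limit for Rag2). Endou, Ly6d and Cd8b1 were 4.29-fold, 3.78-fold and 2.41-fold lower, while the sialyltransferase St6gal1 was 2.52-fold higher. The part of the mixture of DP and SP cells in the Ms4a values was not tested.

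Interferon-induced genes were listed because several Ms4a genes respond to interferon in macrophages. Of 21 tested genes 0 passed the test in limma in either direction, and 16 had positive log2 fold changes, with a median of 0.51. Ifit1 read 265 and 388 in C57BL/6 thymocytes and 710 and 1248 in AND-TCR–transgenic thymocytes, so that only the transgenic group was above the limit (adjusted p = 0.198 in limma). Ifit2 had a log2 fold change of 0.70. Ifit3, Gbp3, Rsad2 and Oasl2 were under the limit on all 4 arrays.

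Thymocyte markers were above the limit on U74Av2, which held all 9 genes of the list that were on the arrays. Of these 9, Cd2 was 1.88-fold higher, Cd8a and Rag1 were 1.83-fold and 4.77-fold lower, and 6 did not pass the test in limma, among them Cd3e with a log2 fold change of 0.06. The summed intensities of the other lists are over U74Av2 probe sets alone, since array types were normalized separately, and are a description in which the brightest genes weigh most. Macrophage and monocyte markers, which matter here because Ms4a6 genes are also read in such cells, had 9 of 19 genes tested and 0 that passed in limma, and 7 of the 9 had positive log2 fold changes, with a median of 0.21. Csf1r was at 0.21 or higher, since its first C57BL/6 array was under the limit, and Cd14 was at 0.63. The summed intensity of the 8 on U74Av2 was 6741 and 8942 in C57BL/6 thymocytes and 9221 and 9617 in AND-TCR–transgenic thymocytes, higher in the transgenic group. The ninth gene, Ms4a7 on U74Cv2, overlapped between the groups, and Adgre1, Itgam, Mrc1, Vsig4, Ccr2 and Aif1 were under the limit on all 4 arrays. Dendritic cell markers had 8 of 12 genes tested and 0 that passed. Their summed intensity, 25311 and 25865 against 36142 and 32941, was higher in the transgenic group. Of the 8 genes 6 had positive log2 fold changes, among them H2-Aa and Cd74 with 0.69 and 0.51. Itgax and Flt3 were at -0.37 and -0.84, each with 1 array under the limit. Xcr1 and Cd209a were not tested, and Siglech and Ccl17 were under the limit on all 4 arrays. B cell markers summed to 25206 and 26264 against 22315 and 23614, lower in the transgenic group. Most of this sum was the immunoglobulin chain Ighm, and without it the sums were 5241 and 3959 against 6302 and 6838, higher in the transgenic group. In the transgenic group most of what was left was the kinase Blk. It read 1924 and 375 against 3496 and 4127, with the second C57BL/6 array under the limit. Of 11 genes 6 were tested and 0 passed in limma, and 2 of the 6 had positive log2 fold changes. Blk was at 2.08 or higher, with 0.86 in the first hybridization and at least 3.29 in the second. Cd79a was at -1.18 or lower, since both of its transgenic arrays (222 and 327) were under the limit. Cd79b was at -0.86 or lower, since its second transgenic array was under the limit. Cd22, Cr2 and Ebf1 were under the limit on all 4 arrays. Among NK and cytotoxic genes 3 of 8 were tested and 0 passed in limma. Gzma and Ccl5 were 3.18-fold (adjusted p = 0.0621 in limma) and 2.37-fold higher, while Nkg7 on U74Cv2 had a log2 fold change of -0.39. Gzma and Ccl5 summed to 1432 and 1864 against 5221 and 4311, higher in the transgenic group. Klrd1, Gzmb, Prf1, Ncr1 and Eomes were under the limit on all 4 arrays. Neutrophil markers summed to 3734 and 2909 against 5352 and 5004, with 3 of 8 genes tested, 0 that passed, and Mpo and Ly6g under the limit on all 4 arrays. Of these 3 genes 2 had positive log2 fold changes, S100a8 (1.01) among them, while Elane was at -0.25. Of mast cell and thymic epithelial markers 1 and 2 genes were tested and 0 passed. The epithelial gene Ccl25 was at 0.19 or higher, with its second C57BL/6 array under the limit, and Epcam was at 0.02. For red cells Hba-a1 was tested and did not pass in limma, at a log2 fold change of -0.96. A probe set that the annotation assigns to several beta-globin genes, singled out after its values were seen, read 17675 and 18121 in C57BL/6 thymocytes and 6786 and 4619 in AND-TCR–transgenic thymocytes and passed as lower, at 3.20-fold (adjusted p = 0.0161 in limma). The part of these cell types in the Ms4a values was not tested.

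The genes with the pattern most like a member were named by the root mean square difference between their 4 log2 intensities and those of the member, each centered on its own mean, over the probe sets of the same array type that exceeded the limit on all 4 arrays. For Ms4a4b, among 3152 probe sets, these were the phosphodiesterase Pde3b (difference 0.098, 2.87-fold higher), Irf2bpl (0.135, 2.89-fold) and Gimap3 (0.138, 2.99-fold). For Ms4a4d, among 4175 probe sets, they were the glycosyltransferase Galnt6 (0.106, 3.01-fold), Cd53 (0.130, 3.03-fold) and Slfn1 (0.138, 3.67-fold). For Ms4a6c they were the membrane-bending protein Bin1 (0.060, 2.48-fold), Itgb7 (0.061, 2.48-fold) and Pacsin1 (0.067, 2.19-fold). Genes found in this way were chosen for their difference between the groups and are a description. Ms4a6b, Ms4a4c and Ms4a6d had no probe set above the limit on all 4 arrays.

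Other properties of the samples divided along the groups. Xist, which is expressed in females, read 2878 and 3001 on the C57BL/6 arrays of U74Av2 and -52.8 and -98.6 on the AND-TCR–transgenic arrays, while the Y-linked Eif2s3y read -110 and 13.0 against 1649 and 1529. A second Xist probe set, on U74Bv2, read 563 and 357 against 417 and 1190, and of these the last alone was above the limit. The fluidics stations held every C57BL/6 array in module 2 and every AND-TCR–transgenic array in module 4. Sex, module and group therefore cannot be told apart for the Ms4a genes. Of the probe sets on an array, 23.1% to 48.9% were above the limit. Over the tested probe sets, r between the 2 arrays of a group was 0.874 to 0.942. It was taken on log2 values with low values raised to the limit.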

How the data were processed

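Thymocyte RNA was measured on 12 arrays, 2 per group and array type. The authors scanned the arrays and analyzed them with Microarray Suite Version 4.0, and they deposited linear intensities, scaled by the authors to a trimmed mean (lowest and highest 2% dropped) near 1000. The type of value is not given in the sources used here. A noise SD was taken from the negative values of each array type, the detection limit was 2 noise SDs, and lower values were raised to it before taking log2. Each array type also held 66 control probe sets, which were not tested. limma 3.58.1 (R 4.3.3; lmFit, eBayes with a trend) was fitted per array type, with Benjamini-Hochberg adjustment over all 12845 tested probe sets. With 2 against 2 arrays an exact permutation test cannot go below p = 0.333 (two-sided), so none was run. The fit was tested on simulated data. Array types were normalized separately and no level was set across them, except to take the brightest probe set per gene for gene lists. Summed marker levels use U74Av2 alone, a choice made after seeing the data.

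Gene names came from the platform annotation, and all 6 genes matched RefSeq (GRCm38.p6) by gene identifier. Named genes were all members, all other Ms4a genes on the arrays and the 3 genes most like a member. From each list they were the called genes with the largest log2 fold changes or else the first tested genes in list order. Ms4a20, Ms4a19, the sex-linked genes and further list members were added after their values were seen. The members, lists and tests were chosen with earlier results of these data known. Alternatives were another floor, no filter, quantile normalization, no trend, a block for the hybridization number and leaving out each array. Correlations of deviations between arrays of the same number were 0.04, -0.12 and -0.23 for the 3 array types. At tested probe sets no values were identical between arrays of a group. The precision is limited by the number of arrays. Plots used matplotlib 3.10.9 under Python 3.11.15.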

Additional observations from a re-analysis of the deposited data

How the results depend on the processing

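The members were chosen for being higher in this contrast, so the sign of their log2 fold changes is no sign of stability. Over the leave-one-out fits the log2 fold changes ran from 1.55 to 1.78 and from 1.35 to 1.41 for Ms4a4b (114822_f_at, 114823_r_at), from 1.70 to 1.82 for Ms4a4d, from 1.16 to 1.33 for Ms4a6c and from 0.52 to 1.53 for Ms4a6b. Quantile normalization put Ms4a4b at 1.83 and Ms4a4d at 1.75, and without the second AND-TCR–transgenic array they were 1.78 and 1.74, the reverse of the order as reported (1.67 and 1.76). A floor of 4 noise SDs lowered 114823_r_at to 0.85 and left Ms4a6b untested. Of the members 2 passed in limma as reported, and the same 2 with a floor of 1 or 4 noise SDs, with quantile normalization and with the replicate block. Without a filter on low values 0 passed and 1 of all probe sets did, beside 135 as reported. Without a trend in the prior variance 0 members and 10 probe sets in all passed. Leaving out 1 array gave 0 to 0 members and 0 to 0 of all probe sets, with the lone array of a group assumed to vary like the other group. At an unadjusted p under 0.05 in limma, 5 members were higher as reported, 4 without the filter and 5 without the trend. In either direction 1795 of all 12845 tested probe sets were under that p as reported. Without the filter these were 1616 of 36701, and without the trend 1679 of 12845. Nothing is read from these counts, since the members were chosen on this contrast. With the replicate block 299 probe sets passed in all. The block with crossed numbers, added after seeing the data because the deviations of same-numbered arrays correlated negatively on 2 array types, gave 4 members and 457 in all. The cause of these changes was not tested. At 4 Ms4a probe sets the signal over background was too low for any statement.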
